A study of Mus musculus with 2 samples.

Results

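CXCR3 and its ligands are described here through 3 genes, Cxcl9, Cxcl10 and Cxcr3, chosen by symbol among the 32285 genes counted in single cells of mouse tumors. Cxcl9 and Cxcl10 encode chemokines, and Cxcr3 encodes the G protein-coupled receptor that both bind. The 3 genes were followed across classes of cells named by marker genes, and each was compared between tumors injected with MSA-2 and control tumors.

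The tumors were MC38, a colon carcinoma line of C57BL/6 origin, grown under the skin of C57BL/6 mice of both sexes. Mice received 3 intratumoral injections, 3 days apart, of either vehicle or MSA-2, a small molecule that activates STING, the adaptor protein that starts interferon production after DNA is sensed in the cytosol. The control library carries the label Untreated, although the series describes its mice as injected with vehicle, saline with 10% DMSO, and it is called untreated here. Tumors of 3 mice were pooled before each library was made, so each group is 1 library, no replicate check of any difference exists, and the spread between mice is not known.

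Both libraries were made with 10x Genomics 3′ chemistry, in which each captured molecule is counted once by a unique molecular identifier (UMI). The untreated library held 14386 barcodes and the MSA-2 library 14617. After a filter on low-quality cells (347 and 654 barcodes removed) and removal of predicted doublets (705 and 570), 13334 untreated cells with 183355500 UMIs and 13393 MSA-2 cells with 191888910 UMIs were kept. The median kept cell had 8298 and 9271 UMIs. The libraries had 53 barcode sequences in common, 39 of them kept in both.

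The published methods describe the cells as sorted, and those left after quality filtering as immune cells. The labels give tumor cells as the cell type, and the tumor marker gate held 48.8% of kept cells in the untreated library and 51.4% in the MSA-2 library. The others carried markers of stromal and immune classes, and each class is called by the class whose markers it carries. Macrophage-like cells numbered 3602 (27.0%) in the untreated library and 1117 (8.34%) in the MSA-2 library. T-like cells went from 1112 (8.34%) to 127 (0.948%), NK-like cells from 208 to 100, and neutrophil-like cells from 30 to 2492. Fibroblast-like cells numbered 199 and 600, endothelial-like cells 63 and 83, and cells with Ly6c2 monocyte markers 433 and 809. Cells that passed no gate made up 6.19% and 8.32%, and 7.09% and 8.86% of all kept cells lay within 0.05 of a gate's threshold. All 8 markers of the fibroblast, endothelial, macrophage, monocyte and T lists, and all 10 of the tumor list, had UMIs in their own class in both libraries. The classes were gated on these same markers, so this is no test of their names.

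In textbook terms, CXCR3 is carried by activated CD8 T cells, type 1 helper T cells, some regulatory T cells and NK cells, and guides them toward its ligands. Cxcl9 responds mainly to interferon gamma, while Cxcl10 also responds to type I interferon and to NF-kB. Macrophages and dendritic cells that make these ligands are known for drawing T cells into tumors.

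Cxcl9 and Cxcl10 are neighbours on chromosome 5, both on the minus strand, with 18558 bases between them in the GENCODE annotation of mm10, and Cxcr3 lies on the X chromosome. Cxcl9 spans chr5:92321347-92328079, Cxcl10 chr5:92346638-92348889 and Cxcr3 chrX:101731535-101734269. RefSeq sequences (build GRCm38.p6) were found for 3 of 3 genes. The 250 bases before the start of each ligand gene are shown because the ligands moved apart in several classes although the genes lie side by side. Capitals mark matches to the motifs searched.
Cxcl9: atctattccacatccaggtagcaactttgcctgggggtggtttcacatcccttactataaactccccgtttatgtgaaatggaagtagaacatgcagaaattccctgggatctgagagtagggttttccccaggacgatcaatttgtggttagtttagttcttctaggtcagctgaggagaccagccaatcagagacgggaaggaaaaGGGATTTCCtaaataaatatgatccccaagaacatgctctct
Cxcl10: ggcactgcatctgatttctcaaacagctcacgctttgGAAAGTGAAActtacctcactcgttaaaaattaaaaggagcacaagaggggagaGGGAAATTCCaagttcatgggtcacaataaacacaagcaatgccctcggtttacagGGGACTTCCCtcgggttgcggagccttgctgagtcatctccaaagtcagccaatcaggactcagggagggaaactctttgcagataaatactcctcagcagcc

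These windows lie on the minus strand at chr5:92328080-92328329 for Cxcl9 and chr5:92348890-92349139 for Cxcl10. The Cxcl10 window falls inside an intron of Art3, a gene on the opposite strand. The motifs were searched on both strands and were chosen with results of these data known. They were the interferon-stimulated response element (GAAA, any 2 bases, GAAA), the interferon gamma site TTCNNNGAA, the T-box site TCACACNT and the NF-kB site in a longer form (GGGA, any 2 bases, T, any base, CC) or as GGGANTTCC. Cxcl10 held 1 match to the response element, 213 to 204 bases before its start, and NF-kB matches at 159 to 150 and at 103 to 94. The last of these matched the longer NF-kB motif on both strands and contained a match to the shorter one. Cxcl9 held 1 match, to the shorter NF-kB motif, 42 to 34 bases before its start. The letters TTCNNNGAA and TCACACNT had no match in either window. Other forms of interferon gamma element were not searched, so such elements may be present. Among all 32851 windows of the same length in the table, 2.98% held the response element, 7.02% the interferon gamma site, 2.95% the T-box site and 4.4% an NF-kB motif. These matches describe letters and show no binding.

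Over all kept cells, Cxcl9 had 41925 UMIs in the untreated library and 48702 in the MSA-2 library, or 228.7 and 253.8 CPM (counts scaled to a total of 1000000 UMIs). Cxcl10 had 434972 and 773523 UMIs, 2372 and 4031 CPM. Cxcr3 had 280 and 43 UMIs, 1.53 and 0.224 CPM. The ligand pool was thus higher after MSA-2, mostly through Cxcl10, while the receptor's transcript was lower. On the log2 scale the MSA-2 level over the untreated one was 0.15 for Cxcl9 (95% interval 0.13 to 0.17), 0.76 for Cxcl10 (0.76 to 0.77) and -2.77 for Cxcr3 (-3.27 to -2.30). All intervals cover counting error only. The Cxcl9 ratio over all cells depended on how cells were weighted. It was 0.04 without the 1% of cells with the most Cxcl9 UMIs, and -0.18, the opposite direction, when each cell had equal weight. Equal weight gave 1.24 for Cxcl10, which is past 2-fold. Art3, which overlaps Cxcl10 on the other strand and was looked up after the values were seen, had 1657 and 3863 UMIs. Whether strand was used in counting is not given in the sources used here.

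With 1 CPM added to both levels, 0 of the 3 genes were at least 2-fold higher, where 3.34% of the 17404 genes with enough UMIs were. Cxcr3 alone of the 3 was at least 2-fold lower, with a log2 ratio of -1.05, where 3.29% of genes were. The median over all those genes was 0.00. The number of genes at least 2-fold higher was 582, and 212 when 10 CPM were added instead. By level among all genes, Cxcl10 ranked 67 in the untreated library and 25 in the MSA-2 library.

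**Figure D1:**
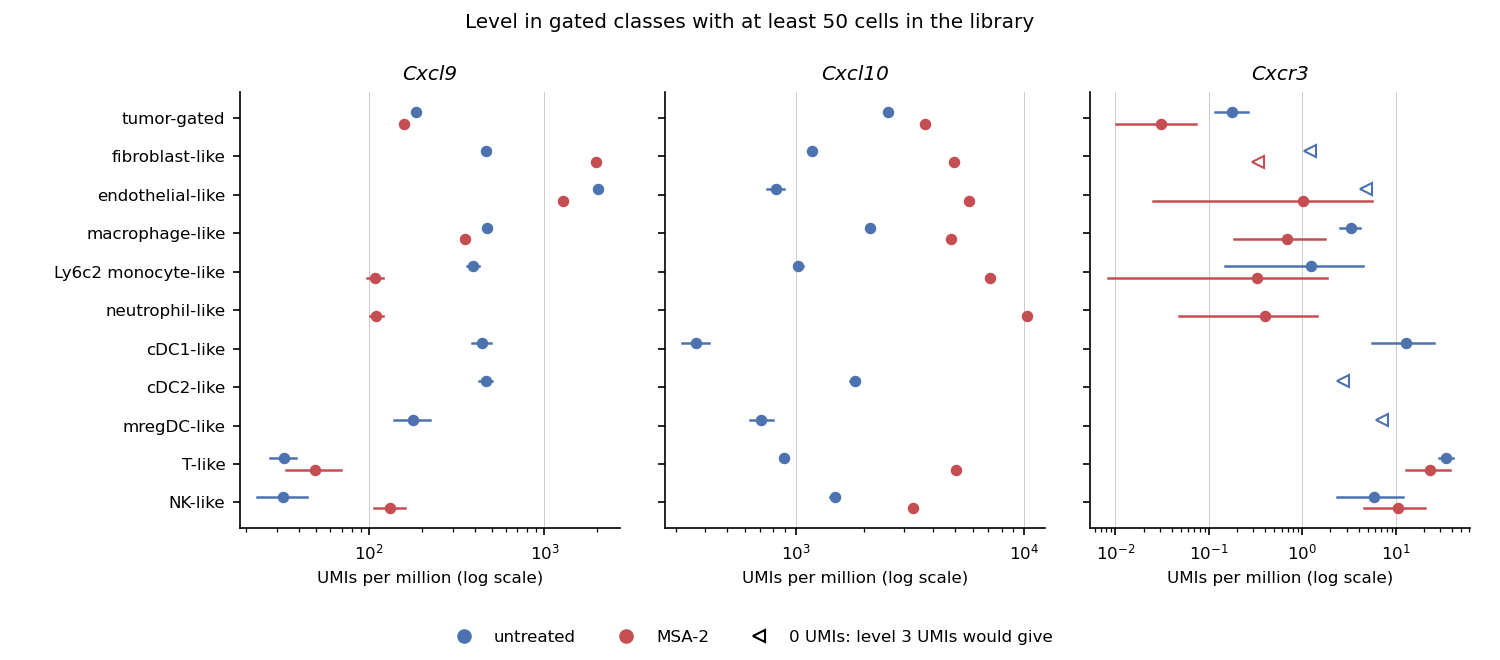
Level of each gene in CPM (log scale) by gated class, in the untreated (blue) and MSA-2 (red) libraries, for classes with at least 50 cells in that library. Lines are exact 95% Poisson intervals, and open triangles mark 0 UMIs at the level that 3 UMIs would give. Cxcl10 is higher in MSA-2 in every class drawn for both libraries, while Cxcl9 is higher in some and lower in others.

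Tumor-gated cells held most Cxcl9 UMIs in both libraries, 64.5% and 52.9%, while the other sources differed. These shares were below their shares of all UMIs, 80.0% and 84.3%. Fibroblast-like cells had 1159 Cxcl9 UMIs in 199 untreated cells and 17683 in 600 MSA-2 cells, a level of 465 against 1967 CPM. They held 2.76% of all Cxcl9 UMIs in the untreated library and 36.3% in the MSA-2 library. Macrophage-like cells moved the other way, from 24.1% to 4.25% of the library's Cxcl9. Of all UMIs, fibroblast-like cells held 1.36% and 4.685%, and macrophage-like cells 11.65% and 3.06%. The fibroblast ratio was 2.08 on the log2 scale (2.0 to 2.17), and the gain was broad, with a median of 1 UMI per untreated cell and 15 per MSA-2 cell. Thinned to 1500 UMIs per cell, so that depth was equal, 21.8% of untreated and 68.9% of MSA-2 fibroblast-like cells had a Cxcl9 UMI. Without thinning the shares were 50.8% and 91.7%.

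In 4 other classes the Cxcl9 level was lower in the MSA-2 library. Endothelial-like cells had the highest level of any untreated class, 2021 CPM, and 1278 in MSA-2, a log2 ratio of -0.66 (-0.78 to -0.55). One endothelial-like cell held 265 of the 1254 untreated UMIs, and without the top cell of each library the ratio was -0.47. The share of endothelial-like cells with a Cxcl9 UMI went the other way, 59.0% and 63.6% thinned (45.7 to 71.5 and 51.9 to 74.3) and 74.6% and 86.7% unthinned. Their median was 5 UMIs per cell in both libraries, and 5 untreated cells held 50% of the UMIs. Macrophage-like cells had 473 and 352 CPM (-0.42, interval -0.49 to -0.36), and tumor-gated cells 184 and 159 (-0.21, interval -0.24 to -0.19). In macrophage-like cells the thinned share with a Cxcl9 UMI was 29.0% and 20.1%. The steepest drop was in Ly6c2 monocyte-like cells, from 390 to 108 CPM (-1.84, interval -2.04 to -1.65), with thinned shares of 23.0% and 8.48%. By level Cxcl9 was therefore higher in 2 of 7 classes with at least 50 cells in both libraries and lower in 4, and the interval for T-like cells held 0.

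NK-like cells were the other class with a higher Cxcl9 ratio, 2.02 on the log2 scale, from 39 to 100 UMIs. Of the 100 UMIs, 54 came from 1 cell. Without the top cell of each library the levels were 31.0 and 62.6 CPM and the ratio 1.01 (0.36 to 1.68). The thinned shares did not differ, 2.96% and 3.00%. T-like cells had 32.7 and 49.3 CPM, with a ratio of 0.59 (-0.01 to 1.16), and thinned shares of 5.63% and 10.5%.

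Some UMIs in any droplet come from free RNA. In untreated T-like cells there were 0.0587 Cxcl9 UMIs for each UMI of the 10 tumor markers, and in tumor-gated cells 0.0573. In MSA-2 these were 0.0844 and 0.0433. The median depth of untreated T-like cells was 3259 UMIs, against 20381 in tumor-gated and 5626 in macrophage-like cells. The same ratio was 0.838 in untreated macrophage-like, 0.883 in endothelial-like and 1.13 in MSA-2 fibroblast-like cells, all above the tumor value. How much of the Cxcl9 in any class was free RNA, from tumor or other cells, was not tested.

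The order of Cxcl9 levels in the untreated library was endothelial-like first, then macrophage-like, fibroblast-like, cDC2-like, cDC1-like and Ly6c2 monocyte-like cells, then tumor-gated and mregDC-like cells, with T-like and NK-like cells last. The intervals of neighbours met from macrophage-like to monocyte-like cells (473 to 390 CPM), between tumor-gated and mregDC-like cells (184 and 178), and between T-like and NK-like cells. In the MSA-2 library fibroblast-like cells came first, then endothelial-like and macrophage-like cells, each apart from the next. Tumor-gated, NK-like, neutrophil-like and monocyte-like cells followed with intervals that met (159 to 108 CPM), and T-like cells were last.

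**Figure D2:**
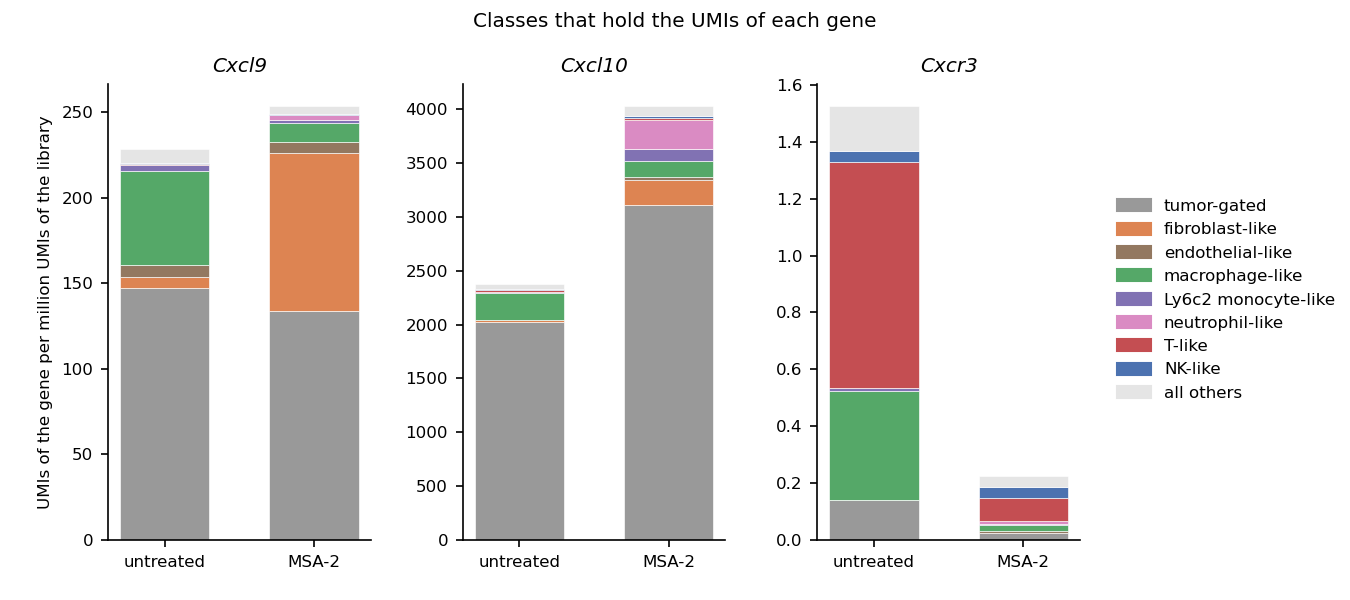
Stacked bars give the part of each library's level, in CPM of the whole library, that lay in each gated class, for the untreated and MSA-2 libraries. Fibroblast-like cells account for 92.2 of 253.8 CPM of Cxcl9 in MSA-2, and macrophage-like cells for 55.1 of 228.7 in untreated.

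Cxcl10 was higher in MSA-2 in 7 of 7 classes with at least 50 cells in both libraries. The smallest ratio was in tumor-gated cells, from 2533 to 3690 CPM (0.54, interval 0.54 to 0.55). They held 85.4% and 77.2% of all Cxcl10 UMIs, and 80.0% and 84.3% of the UMIs of all genes. Macrophage-like cells went from 2109 to 4812 CPM (1.19, interval 1.17 to 1.21), and their share of the library's Cxcl10 from 10.4% to 3.66%. Ratios were larger in endothelial-like, Ly6c2 monocyte-like, T-like and fibroblast-like cells, but not in NK-like cells. Endothelial-like cells went from 817 to 5783 CPM (2.82, interval 2.69 to 2.96) and Ly6c2 monocyte-like cells from 1028 to 7092 (2.79, interval 2.71 to 2.86). T-like cells went from 893 to 5069 (2.50, interval 2.44 to 2.57), fibroblast-like cells from 1186 to 4944 (2.06) and NK-like cells from 1484 to 3278 (1.14).

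Neutrophil-like cells, nearly absent from the untreated library, had the highest Cxcl10 level in MSA-2 among classes with at least 50 cells. Their 2492 cells held 51698 UMIs, 10306 CPM and 6.68% of the library's Cxcl10, at a median depth of 1830 UMIs per cell. The 30 untreated neutrophil-like cells had 76 UMIs, 1992 CPM (1569 to 2493). Among the MSA-2 cells, a neutrophil cluster of 2175 cells led by Retnlg, S100a8 and S100a9 had 11669 CPM. A cluster of 445 cells led by Cstdc4, Cxcl3 and Hcar2 had 2137. It stayed unnamed and had no listed neutrophil marker among its top 10 genes, though 366 of its cells were neutrophil-gated. Set against free RNA, mast-like cells, 17 in each library, had 0.849 and 1.02 Cxcl10 UMIs per tumor-marker UMI, and tumor-gated cells 0.788 and 1.0. Untreated fibroblast-like and endothelial-like cells lay below these, at 0.505 and 0.357. The ratio was 10.8 in MSA-2 neutrophil-like, 8.68 in T-like, 7.50 in Ly6c2 monocyte-like and 6.30 in macrophage-like cells. The part of free RNA in these values was not tested.

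The order of classes with at least 50 cells by Cxcl10 level in CPM turned over between the libraries. Tumor-gated cells were first of 10 classes in untreated and seventh of 8 in MSA-2, where neutrophil-like, Ly6c2 monocyte-like and endothelial-like cells led. By Cxcl10 UMIs per cell, which depend on depth, the MSA-2 order differed. Tumor-gated cells had 86.7, fibroblast-like 74.1, endothelial-like 69.3 and Ly6c2 monocyte-like cells 26.9. T-like cells had 25.9, macrophage-like 25.3, NK-like 24.9 and neutrophil-like cells 20.75. Neighbouring intervals met among T-like, endothelial-like and mregDC-like cells in untreated (893 to 708 CPM) and between T-like and fibroblast-like cells in MSA-2. cDC1-like cells were last in the untreated library, with 365 CPM in 59 cells, and numbered 2 in MSA-2. In untreated, 4 named tumor clusters ran from 2250 to 4431 CPM of Cxcl10 and from 88.0 to 409.7 CPM of Cxcl9. A further cluster so named, of 41 cells with Xcl1, Icos and Gzma among its top genes, had 1561 and 76.0. Another 2 clusters scored highest for tumor markers but stayed unnamed, and they held 35.5% of untreated tumor-gated cells. The one of 1550 cells had 1316 CPM of Cxcl10 and 72.2 of Cxcl9, and the one of 806 cells 3480 and 335.9.

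**Figure D3:**
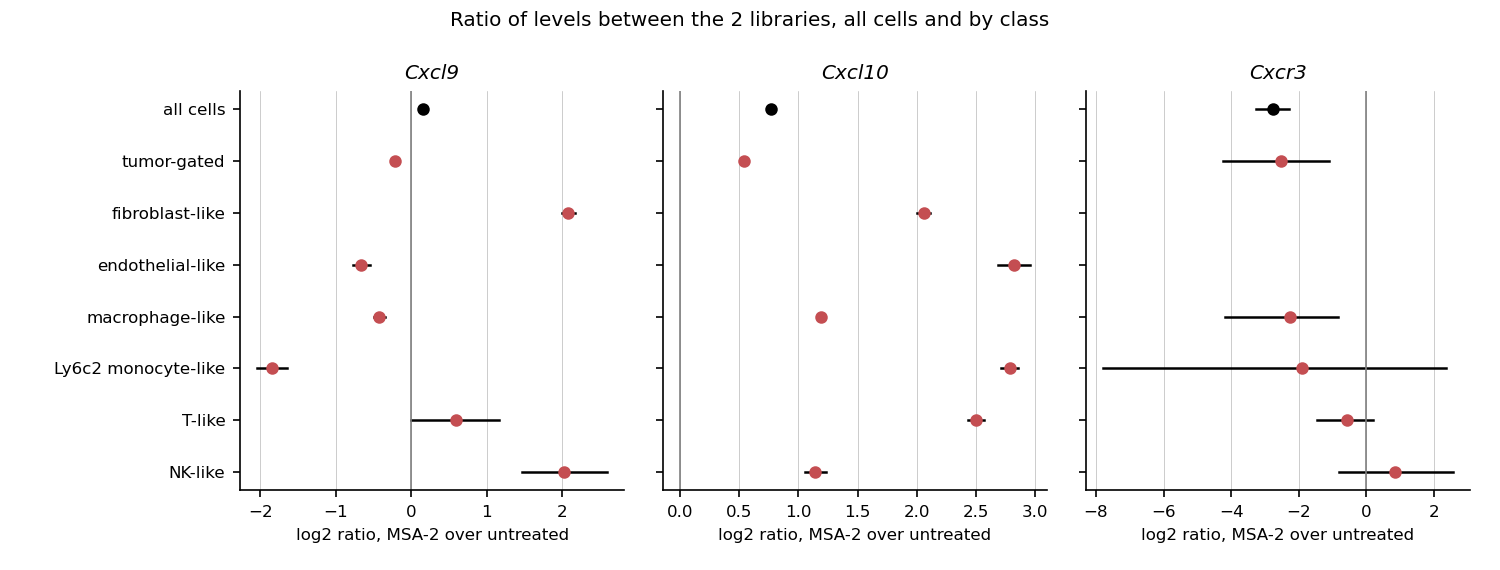
Log2 ratio of CPM, MSA-2 over untreated, for all cells (black) and for classes with at least 50 cells in both libraries (red), with 95% intervals from the exact conditional binomial. Cxcl10 lies above 0 in 7 of 7 classes, Cxcl9 lies on both sides, and no Cxcr3 ratio is drawn where a library had 0 UMIs.

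The balance of the ligands therefore differed between classes and libraries. It is given as Cxcl10 UMIs per Cxcl9 UMI, to be read across classes and not as a ratio of proteins. Over all cells there were 10.4 in untreated and 15.9 in MSA-2. It was 0.404 and 4.53 in endothelial-like, 4.46 and 13.7 in macrophage-like and 13.7 and 23.2 in tumor-gated cells. T-like cells went from 27.3 to 102.8, and NK-like cells fell from 45.6 to 24.9, with 54 of their 100 MSA-2 Cxcl9 UMIs in 1 cell. Fibroblast-like cells stayed at 2.55 and 2.51, with both ligands higher by like amounts. Ly6c2 monocyte-like cells went from 2.64 to 65.4, with Cxcl10 higher and Cxcl9 lower, and neutrophil-like cells in MSA-2 had 93.7. Tumor-gated cells with a Cxcl9 UMI more often had a Cxcl10 UMI too, as did untreated macrophage-like cells. In untreated macrophage-like cells thinned to 1500 UMIs, 75.1% of cells with Cxcl9 had Cxcl10 (72.4 to 77.8) and 67.8% of those without (65.9 to 69.6). In MSA-2 the intervals overlapped, 97.7% (94.6 to 99.2) and 94.7% (93.0 to 96.1). In tumor-gated cells these shares were 88.5% and 74.3% in untreated and 94.8% and 88.0% in MSA-2.

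Several values bear on how far a class is the same in both libraries. In untreated Ly6c2 monocyte-like cells the macrophage list, led by Apoe, had a median of 50.8 UMIs per 10000, and in MSA-2 11.2. None of the untreated ones lay in a cluster named for monocytes: the cluster led by Ly6c2 and Chil3 (1211 cells) scored highest for macrophage markers, stayed unnamed, and had 513.0 CPM of Cxcl9 and 1561 CPM of Cxcl10. The named Ly6c2 monocyte cluster in MSA-2 (891 cells) had 104 and 6833. In fibroblast-like cells the fibroblast list fell from 476 to 271 UMIs per 10000 and the monocyte list, led by Plac8, went from 12.5 to 44.3. The fibroblast cluster of each library had 459 and 1778 CPM of Cxcl9. Of untreated macrophage-like cells, 23.5% lay in clusters left unnamed, and macrophage clusters ranged from 74.1 to 608 CPM of Cxcl9. With cells named by cluster, macrophage-like cells gave -0.45 for Cxcl9 and 1.15 for Cxcl10, while 31.5% of untreated and 24.0% of MSA-2 cells lay in unnamed clusters. The part of these differences in the ratios was not tested. Scaling factors of edgeR shifted all ratios by 0.22 in fibroblast-like, 0.17 in endothelial-like and 0.29 in monocyte-like cells.

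Cxcr3 was sparse, and its level was highest in T-like cells among classes with at least 50 cells. In the untreated library 242 cells had a Cxcr3 UMI, of which 117 (48.3%) were T-like, 66 (27.3%) macrophage-like and 26 (10.7%) tumor-gated. In the MSA-2 library 38 cells had one, of which 11 were T-like, 7 NK-like, 6 ungated, 5 tumor-gated and 4 macrophage-like. T-like cells had 146 UMIs in untreated (34.6 CPM, 29.2 to 40.7) and 15 in MSA-2 (23.1, 12.9 to 38.1). The drop within T-like cells, -0.58 on the log2 scale, was not resolved at this depth (-1.46 to 0.19). NK-like cells had 7 and 8 UMIs, a ratio of 0.85 whose interval also held 0 (-0.81 to 2.55). T-like and NK-like cells together went from 153 to 23 UMIs, 28.2 to 16.3 CPM, a ratio of -0.79 (-1.49 to -0.15). NK-like cells, with the lower Cxcr3 level, made up 208 of these 1320 cells in untreated and 100 of 227 in MSA-2, so the joint ratio also holds a change of mix.

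Thinned to 1500 UMIs, 65 of 1084 untreated T-like cells had a Cxcr3 UMI (6.0%, exact interval 4.66 to 7.58), and 6 of 124 in MSA-2 (4.84%, 1.80 to 10.2). Unthinned shares were 10.5% and 8.66%. Tumor-gated cells, which should lack the receptor, gave 4 of 6457 (0.0620%) and 0 of 6846, which allows up to 0.0438%. Median depth before thinning was 3259 UMIs in untreated T-like and 20381 in tumor-gated cells. Fibroblast-like cells had 0 Cxcr3 UMIs in 199 and 600 cells, which allows up to 1.2 and 0.334 CPM. Ungated cells, which are shallow (median 1746 and 1658 UMIs), had thinned shares of 2.05% (0.987 to 3.74) and 0.809% (0.263 to 1.88). The untreated T-like share was above these, while in MSA-2 the intervals met.

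Macrophage-like cells held 70 Cxcr3 UMIs in untreated, 3.28 CPM, and 4 in MSA-2, 0.681 CPM, a ratio of -2.27 (-4.18 to -0.85). Their thinned share in untreated, 0.373% (0.199 to 0.638), was above that of tumor-gated cells (0.0169 to 0.158). Of the 66 untreated macrophage-like cells with Cxcr3, 13 (19.7%, 10.9 to 31.3) had a UMI of the 8 T markers. Of those without Cxcr3, 399 of 3536 did (11.3%, 10.3 to 12.4), and the intervals overlapped. The median depth was 6810 UMIs with and 5610 without Cxcr3. The mean count of T-marker UMIs was 1.15 and 0.186. In MSA-2, 2.16% of macrophage-like cells without Cxcr3 had a T-marker UMI (1.39 to 3.19). In tumor-gated cells without Cxcr3 the share was 30.6% in untreated and 6.87% in MSA-2. Whether doublets or free T cell RNA gave the Cxcr3 UMIs of macrophage-like cells was not tested. In the untreated library 7 of 59 cDC1-like cells had Cxcr3 (8 UMIs, 13 CPM), though 0 of 58 after thinning from a median of 10417 UMIs, and 3 of 17 pDC-like cells (4 UMIs). In the order of untreated levels T-like cells stood apart from the next class, cDC1-like, and from there down the neighbours' intervals met. In MSA-2 every pair of neighbours met.

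**Figure D4:**
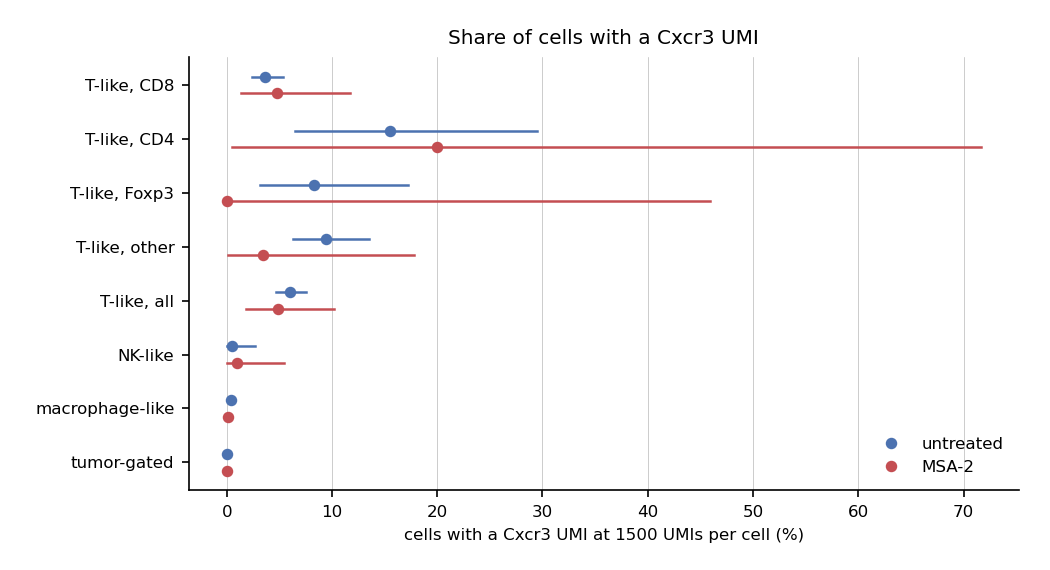
Percent of cells with at least 1 Cxcr3 UMI after thinning every cell to 1500 UMIs, by class and T cell subset, in the untreated (blue) and MSA-2 (red) libraries, with exact 95% Clopper-Pearson intervals. Untreated CD4 cells reach 15.6% and CD8 cells 3.67%, and tumor-gated cells lie at or near 0.

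Within untreated T-like cells the receptor was not spread evenly. CD8 cells were the largest subset, 691 cells, with 18.7 CPM of Cxcr3 (14.0 to 24.5). CD4 cells without Foxp3 had 94.5 (52.9 to 156) in 46 cells, and cells with Foxp3, the regulatory T cell factor, had 64.3 (40.8 to 96.5) in 73 cells. The 302 T-like cells with no subset marker had 62.9 (47.4 to 81.9). The CD8 level was below those of the other three, whose intervals met one another. Of the 65 cells with a thinned Cxcr3 UMI, 38.5% were CD8 cells, against 64.5% of the 1019 without. Clusters made without the 3 genes differed too, along lines other than the CD8 gate, whose cells held 53 Cxcr3 UMIs. A T cluster of 547 cells led by Cd3g, Ifng, Tox and Cd8a had 6 Cxcr3 UMIs (2.48 CPM), while a cluster of 508 cells led by Satb1 and Themis had 103 (74.6). A cluster of 197 cells led by Tnfrsf4, Ctla4 and Ikzf2 had 47 (69.8). In MSA-2 the 86 CD8 cells had 6 UMIs, 12.0 CPM (4.4 to 26.1), 5 CD4 cells had 4 UMIs and 6 cells with Foxp3 had 0. The other subsets were too small there to compare.

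How much of each total ratio went with class levels and how much with class sizes was computed by holding one fixed. With the share of each library's UMIs in 10 groups of classes held as in untreated, the MSA-2 levels alone gave a log2 ratio of -1.01 for Cxcr3. The MSA-2 shares alone, with untreated levels, gave -1.42. These Cxcr3 values have no interval and rest on 280 untreated and 43 MSA-2 UMIs. The interval of the Cxcr3 ratio within T-like cells held 0. For Cxcl10, levels alone gave 0.72 of the 0.76 and shares alone 0.00. For Cxcl9 levels alone gave -0.11 and shares alone -0.08, although the total was 0.15. Fibroblast-like cells had both a higher level and a larger share in MSA-2. Per Cxcr3 UMI there were 1703 ligand UMIs in untreated and 19121 in MSA-2. Per T-like or NK-like cell there were 361 and 3622.

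The genes that induce the ligands were set beside them. Of 11 inducers 6 were at least 2-fold higher over all cells, where 3.34% of genes were, and 2 lower, where 3.29% were, with a median of 1.04 (1 CPM added, as in all counts of lists), where the median of all genes was 0.00. Ifnb1, a type I interferon, went from 16.2 to 104 CPM. Il12b, the IL-12 subunit that drives type 1 helper T cells, went from 10.9 to 0.568 (-2.93). Ifng, the interferon made by T and NK cells, was 25.0 and 22.9 CPM over all cells. That near-equal total hid opposite changes: T-like cells went from 762 to 3114 CPM of Ifng and NK-like cells from 445 to 1676, while both classes held fewer cells. Ifnb1 was carried by macrophage-like cells in untreated (79.6% of UMIs, 111 CPM) and by Ly6c2 monocyte-like cells (39.5%, 2561 CPM) and macrophage-like cells (27.2%, 920 CPM) in MSA-2. In Ly6c2 monocyte-like cells the untreated Ifnb1 level was 9.78 CPM.

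The relay from interferon and TNF receptors to the ligand genes was counted in the same way. Over all cells 3 of 22 were at least 2-fold higher (3.34% of genes) and 1 lower (3.29%), with a median of 0.15. Usp18, a feedback inhibitor of type I interferon signalling, was 1.94 and Irf7, a factor that amplifies type I interferon, 1.15. Irf8, a factor of dendritic cells and macrophages, was -2.19. In Ly6c2 monocyte-like cells both chains of the interferon gamma receptor were lower, Ifngr1 at -1.55 and Ifngr2 at -1.87, among 4 of 22 that were at least 2-fold lower, where 9.04% of genes were. In the same cells 5 of 22 were higher, where 10.4% of genes were, among them Usp18 (2.78) and Tbk1, a kinase downstream of STING (1.30). Sting1, which encodes STING itself, was among the 4 lower genes (-1.03). In macrophage-like cells Ifngr2 was -1.0 and the 1 of 22 that was lower, where 3.71% of genes were, and 3 of 22 were higher, where 5.26% of genes were. Fibroblast-like cells had 4 of 22 higher (5.94% of genes) and 1 lower (6.07%), and endothelial-like cells 5 of 18 higher (5.32%) and 1 lower (4.35%). With edgeR's factors Ifngr2 no longer passed 2-fold in macrophage-like cells, where 3 were higher and 0 lower. The same factors gave 7 of 22 higher and 0 lower in fibroblast-like cells. In Ly6c2 monocyte-like cells they gave 7 higher and 3 lower.

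Cxcl11, the third ligand, was not analysed here. Among 7 measured genes for other CXCR3 ligands, scavengers and processing, none was 2-fold higher (3.34% of genes) or lower (3.29%) over all cells, with a median of 0.19. They include Pf4, a platelet and macrophage chemokine that binds CXCR3 weakly, at 51.4 and 65.8 CPM. Dpp4, the protease that trims these chemokines, had 4.06 and 4.12. In macrophage-like cells 3 of 6 were at least 2-fold higher (5.26% of genes) and 0 lower (3.71%), among them Pf4 (2.02) and Sdc4, a proteoglycan that holds chemokines (2.06). In endothelial-like cells Ackr1, which carries chemokines across vessels, went from 37.1 to 167 CPM, and Ackr3, a scavenger of Cxcl12, from 135 to 59.3.

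Other chemokines were set beside the CXCR3 ligands. Of 20 measured, 11 were at least 2-fold higher over all cells (3.34% of genes) and 4 lower (3.29%), with a median of 1.24. Cxcl5, a neutrophil chemokine, was 5.2 and Cxcl13, which draws B cells, 4.15. Ccl5, which draws T cells, was 1.57. Ccl17 and Ccl22, which dendritic cells make for CCR4, were -2.88 and -2.11, and Cxcl16, the ligand of CXCR6, was -1.91. In fibroblast-like cells 9 of 17 were higher (5.94% of genes) and 1 lower (6.07%), among them Ccl5 (3.81), Cxcl13 (5.39) and Cxcl5 (4.76).

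On the receptor side, 0 of 20 genes for expression and signalling of the receptor were at least 2-fold higher over all cells (3.34% of genes) and 6 were lower (3.29%), with a median of -0.59. In T-like cells alone 1 of these 20 was higher (3.74%) and 3 lower (7.66%), with a median of -0.20 against -0.15 for all genes. With edgeR's factors 1 was higher and 2 lower there. Tbx21, the T-box factor that switches on Cxcr3, went from 6.52 to 0.849 CPM over all cells. The other chemokine receptors of lymphocytes had 0 of 11 higher (3.34%) and 7 lower (3.29%), with a median of -1.57. Cxcr6 was -2.47 and Ccr7 -2.32. Among T-like cells 0 of 8 measured receptors were higher (3.74% of genes) and 5 lower (7.66%), with a median of -1.34. Cxcr6 went from 250.5 to 92.4 CPM in them, Ccr7 from 131 to 53.9 and Tbx21 from 168 to 83.2. With NK-like cells added, 4 of 8 receptors were lower, where 6.08% of genes were, and 0 higher, where 3.73% were. Of T cell state genes in T-like cells 1 of 21 was higher (3.74% of genes) and 1 lower (7.66%), so near the share of all genes. With NK-like cells added 4 of 22 were higher (3.73%) and 3 lower (6.08%). Over all cells 1 of 22 was higher (3.34%) and 7 were lower (3.29%).

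Tumor-gated cells held the largest share of both ligands and of all UMIs. They had 2 of 22 relay genes at least 2-fold higher, where 3.07% of genes were, and 1 lower, where 1.79% were. Il15, a cytokine that sustains NK and memory T cells, went from 26.3 to 77.4 CPM in them and Cd274, which encodes PD-L1, from 39.3 to 137.

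Macrophage-like cells with a Cxcl9 UMI were compared with those without, within each library and after thinning to 1500 UMIs (1010 against 2472 cells in untreated, 213 against 847 in MSA-2). They had more of the interferon-induced GTPase Gbp4, 52.8 against 21.0 CPM in untreated (1.29 with 1 CPM added) and 106 against 36.2 in MSA-2 (1.53). Cd40, the receptor for T cell help, was 0.65 higher in untreated and 1.55 in MSA-2. H2-Ab1, an MHC class II chain, was 5176 against 3638 CPM in untreated and 761 against 523 in MSA-2. Spp1, which encodes osteopontin, was lower in both (-0.45 and -0.79). Of 21 measured genes of this list in untreated, 1 was at least 2-fold higher, where 0.177% of genes were, and 1 lower, where 0.52% were, with a median of 0.49 against -0.02 for all genes. In MSA-2 2 of 20 were higher, where 0.569% of genes were, and 0 lower, where 1.66% were, with a median of 0.27 against -0.01. Among relay genes 0 of 22 and 0 of 19 passed 2-fold either way. Of the other chemokines 1 passed in each library, Cxcl3, a neutrophil chemokine, at -1.94 and -1.29. The median depth before thinning was 5896 with and 5628 without Cxcl9 in untreated, and 5255 and 4953 in MSA-2.

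**Figure D5:**
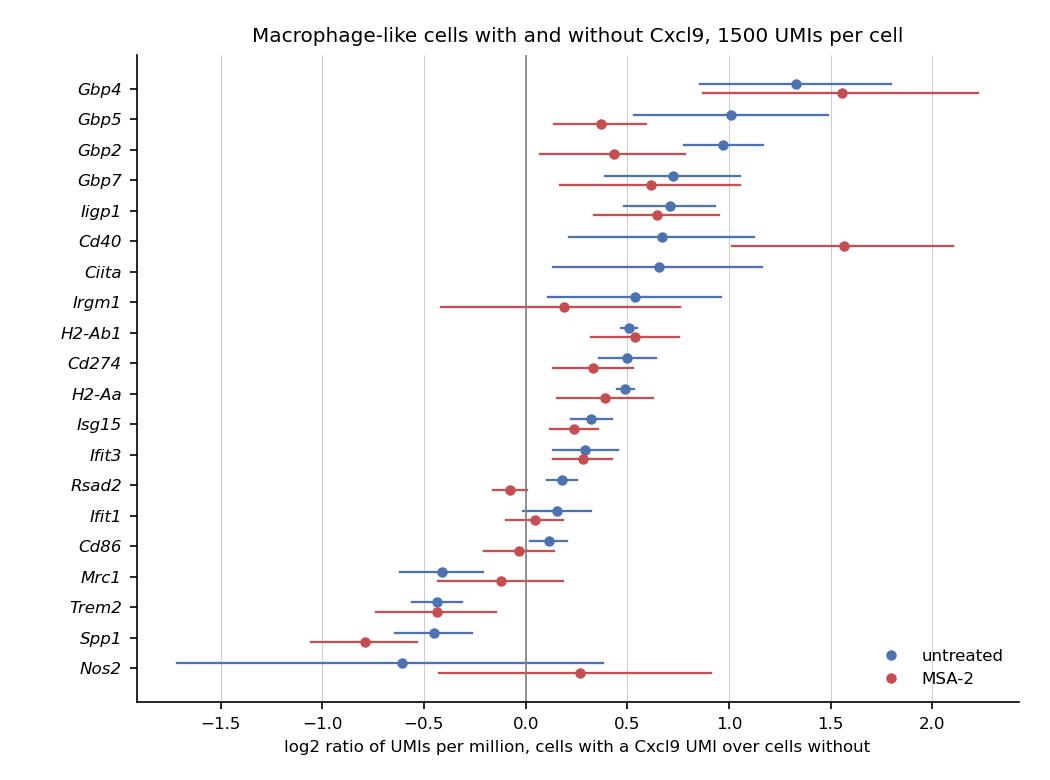
Log2 ratio of CPM between macrophage-like cells with and without a Cxcl9 UMI, each cell thinned to 1500 UMIs, for most listed genes with enough UMIs, in the untreated (blue) and MSA-2 (red) libraries, with 95% intervals from the exact conditional binomial. Gbp4 and Cd40 lie to the right in both libraries and Spp1 and Trem2 to the left.

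T-like cells with a Cxcr3 UMI were compared with the rest in the same way (65 against 1019 cells in untreated). Gzmk, a granzyme of less differentiated CD8 cells, was 133 against 54.3 CPM (13 and 83 UMIs, log2 ratio 1.30, interval 0.33 to 2.15). Icos, a costimulatory receptor, was 738 against 357 (1.05, interval 0.68 to 1.41) and Gzmb 923 against 453 (1.03, interval 0.69 to 1.35). Several genes were lower. Pdcd1, which encodes PD-1, was 61.5 against 159 (-1.37, interval -2.83 to -0.23), Tox 205 against 425 (-1.05, interval -1.77 to -0.41) and Prf1 30.8 against 143, with 3 UMIs in cells with Cxcr3 (-2.22, interval -4.51 to -0.65). Lag3, an inhibitory receptor, had 0 UMIs in the 65 cells, which allows up to 30.8 CPM, against 55 CPM in the others. Intervals held 0 for the granzyme Gzma (0.15), the granule protein Nkg7 (-0.14) and the inhibitory receptors Tigit (0.23) and Havcr2 (-0.31). Tbx21 was 82.1 against 181 (-1.14, interval -2.36 to -0.14). Of 20 measured T cell state genes 3 were at least 2-fold higher, where 3.2% of genes were, and 5 lower, or 4 with Lag3 set to 3 UMIs, where 9.97% were. Their median was 0.08 against -0.03 for all genes. In MSA-2 6 cells had Cxcr3, and of 6 measured state genes 1 was higher, where 6.17% of genes were, and 0 lower, where 17.4% were. The untreated cells with Cxcr3 were shallower before thinning, with a median of 2491 UMIs against 3385. They also included fewer CD8 cells, 38.5% against 64.5%. The part of this mix in the differences was not tested.

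By likeness of pattern across 18 class sums (classes with at least 50 cells in a library, Pearson r of log2 levels, 14422 genes compared), the nearest genes differed between the ligands. The points share libraries and some free RNA. Several points, such as fibroblast-like cells of both libraries, had 0 Cxcr3 UMIs, so its r values rest in part on the floor. Nearest to Cxcl9 were Itpripl2 (r = 0.86), Eng (0.86), Cdc42bpb (0.84), Tmem198b (0.83) and Cd276 (0.83). Nearest to Cxcl10 were Ifit3b (0.93), Ifit3 (0.92), Ifit1 (0.92), Ddx58 (0.91) and S100a8 (0.90), and nearest to Cxcr3 were Dennd2d (0.92), Nsmaf (0.91), Gm15472 (0.90), Ikzf2 (0.89) and Ptpn22 (0.88). Cxcl9 and Cxcl10 themselves had r = -0.08 over the same points, so the neighbouring ligand genes did not share a pattern across classes.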

How the data were processed

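Single-cell libraries were made per the labels with 10x Genomics 3′ kits, and the deposited values are raw UMI counts per gene and barcode, which the authors made with Cell Ranger 7.0.0 on mm10 per the submitted record (which also names Seurat 4.3.0), while the published methods name other versions of both. Cells were kept from 500 genes upward if no more than 20% of their UMIs were mitochondrial. Predicted doublets were removed with Scrublet in scanpy 1.11.5 (Python 3.11.15, numpy 2.4.6, scipy 1.17.1). Cells were gated by marker scores, whose thresholds were set after seeing the data. Leiden clusters, made without the 3 genes and named by the same markers, served as an alternative. The members, the gene lists and the motifs were chosen with earlier results of these data known.

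Levels are CPM over the sum of a class. Intervals at 95% are exact (Poisson, Clopper-Pearson, conditional binomial). A count of 0 allows 3 counts. Shares of cells used counts thinned to 1500 UMIs, leaving out cells with fewer. Genes needed 50 UMIs, and 1 CPM was added before 2-fold counts. Named genes were the 3 members, genes of the 8 lists (139 of 140 found by symbol) and the 5 genes nearest to each member. Alternatives were the cell filter, doublets kept, cluster naming, a stricter gate, other thinning depths, the value added, edgeR 4.0.16 TMM factors (R 4.3.3), equal weight per cell and leaving out the top 1% of cells. Some genes of the lists are not reported here. Ratios and intervals were run on counts simulated with Poisson noise, so that run does not cover UMIs clumped in single cells. With 1 library per group no test between groups was made.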

Additional observations from a re-analysis of the deposited data

Results flagged for a closer look

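Cxcl9 moved in opposite directions in different classes under the same comparison. Its log2 ratio, MSA-2 over untreated, was 2.08 in fibroblast-like and 2.02 in NK-like cells, and -0.21 in tumor-gated, -0.42 in macrophage-like, -0.66 in endothelial-like and -1.84 in Ly6c2 monocyte-like cells. The difference between classes was not tested, since each group is 1 library. In NK-like cells 54 of the 100 MSA-2 UMIs lay in 1 cell, and the ratio without the top cell of each library was 1.01.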

How the results depend on the processing

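Of 73 alternative values, 49 stayed within the interval of the reported value (or within 1.5 times it for the gene count), 23 moved outside it and 1 reversed. The causes were not tested. Cxcl9 over all cells (0.15) was 0.18 with the stricter cell filter, 0.0408 without the top 1% of cells and, reversed, -0.18 with equal weight per cell. Cxcl10 over all cells (0.76) was 0.72 with the stricter filter, 0.77 with doublets kept, 0.75 with TMM factors, 1.24 with equal weight and 0.84 without the top 1%. In macrophage-like cells Cxcl9 (-0.42) was -0.32 with doublets kept, -0.67 with equal weight and -0.62 without the top 1%. Cxcl10 there (1.19) was 1.098 with doublets kept, 1.15 by clusters, 1.25 with TMM factors, 1.26 with equal weight and 1.25 without the top 1%. Their share of MSA-2 Cxcl9 UMIs (4.25%) was 4.57% with doublets kept and 3.86% by clusters, and of Cxcl10 UMIs (3.66%) 3.86% with the stricter filter, 4.06% with doublets kept and 3.60% by clusters. Untreated T-like cells with a Cxcr3 UMI (6.0%) were 4.41% at 1000 UMIs and 10.5% unthinned. Genes at least 2-fold higher (582) were 212 with 10 CPM added. The Cxcr3 ratio in T-like and NK-like cells ran from -1.098 to -0.75 over 8 alternatives, and over all cells from -2.91 to -2.79 over 5. Without the top 1% of cells (134 in MSA-2), all 38 MSA-2 cells with Cxcr3 would be left out, so no value was had. The low Cxcr3 count limits what depth can show in MSA-2 T-like cells.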

Other observations

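Of 21 measured genes of the myeloid list, 12 were at least 2-fold higher in macrophage-like cells, where 5.26% of genes were, and 3 lower, where 3.71% were. H2-Aa, an MHC class II chain, went from 3770 CPM in untreated to 489 CPM in MSA-2, and Ciita, the factor that switches on MHC class II, from 24.6 to 2.04. Gbp5, an interferon-induced GTPase, went from 33.8 to 530 CPM, and Nos2, which makes nitric oxide, from 10.7 to 80.8. Fibroblast-like cells had the same directions for Gbp5 (24.9 and 284 CPM) and Nos2 (4.01 and 218), and Cd274 went from 24.5 to 218 in them. These ratios come from 1 library per group and were not tested.

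A mast cell cluster of 62 untreated cells, with S100a8 and S100a9 among its top genes, had 609.7 CPM of Cxcl9, while the 17 mast-gated cells had 3 UMIs, 52.3 CPM. The cause was not tested.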
